A study of Mus musculus with 6 samples.

Results

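The 30 mouse genes described here make cholesterol, sense it or move it within and out of the cell. They were taken by gene symbol from a table of expression values for 55335 genes, and all 30 were found and measured. They comprise 8 genes of the mevalonate pathway, 12 enzymes that turn its product into squalene and then sterols, 5 regulators of the sterol response, and 5 genes of sterol transport, export and turnover. Cholesterol is built from acetyl-CoA through mevalonate, isoprenoid diphosphates, squalene and lanosterol. When membrane sterol is low, SCAP carries the precursors of the transcription factors SREBP1 and SREBP2 from the endoplasmic reticulum to the Golgi for cleavage. The cut factors then switch on the synthesis genes, whereas INSIG proteins hold SCAP back when sterol is plentiful. The brain makes its own cholesterol, since lipoproteins do not cross the blood-brain barrier, and neurons dispose of an excess by oxidising it with CYP46A1.

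RNA of 6 samples of cultured cells was sequenced as paired ends to ask what Brpf1 does in inhibitory interneurons derived from the MGE (medial ganglionic eminence), a ventral part of the embryonic forebrain where many cortical interneurons are born. Brpf1 is a scaffold subunit of histone acetyltransferase complexes. The cells came from wild-type C57BL/6 embryonic brain at embryonic day 14.5 and grew in neurobasal medium with B27 supplement. The cells of all 6 samples were exposed to an adeno-associated virus (AAV) for 12 hours, which carried a short hairpin against Brpf1 in 3 of them (AAV-shbrpf1) and a scrambled hairpin in the other 3 (AAV-scramble). The sample titles call the cells GABAergic interneurons, while the source field names neural progenitors. Not given in the sources used here are the promoter of the hairpin and the time from infection to harvest. Each group holds libraries numbered 1, 2 and 3, and the labels say neither what a number stands for nor whether libraries came from separate cultures or animals. The p-values therefore measure only how far these 6 samples spread, and that spread may be technical.

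Brpf1 itself stood at 3.13, 4.58 and 3.78 FPKM (fragments scaled to transcript length and library depth) in AAV-shbrpf1 libraries 1, 2 and 3, against 3.29, 5.45 and 4.84 FPKM in AAV-scramble libraries 1, 2 and 3. The means were 3.83 ± 0.723 and 4.53 ± 1.11 FPKM (SD, n = 3 each), which did not differ beyond the spread (exact two-sided permutation p = 0.4, where 0.1 is the smallest possible). Brpf1 was lower with AAV-shbrpf1 in all 3 pairs of the same number (exact two-sided sign-flip permutation p = 0.25, the smallest that 3 pairs allow), and it did not pass in limma with or without the number as a block (adjusted p = 1 in both). The contrasts below are between libraries labelled by virus. Low values put the depth at 13.1 to 21.1 M fragments per library. Libraries resembled each other by number. Deviations from the group mean correlated at 0.87, 0.83 and 0.57 across genes for numbers 1, 2 and 3. Between different numbers they correlated at no more than 0.002. The 3 deviations of a group sum to 0 for each gene, so high values within numbers force lower ones between them. All 8 GABAergic markers were expressed, with a summed level of 499 to 586 FPKM in AAV-shbrpf1 libraries and 542 to 612 FPKM in AAV-scramble libraries. All 6 radial glia and progenitor markers were expressed too, with sums of 283 to 936 FPKM in AAV-shbrpf1 libraries and 315 to 890 FPKM in AAV-scramble libraries. The 4 glutamatergic markers summed to at most 0.843 FPKM and the 4 microglial markers to at most 0.371 FPKM, with Cx3cr1 at 0 throughout.

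Between the viruses no cholesterol gene passed the threshold for a difference. With limma on log2(FPKM + 1), 0 of the 30 genes passed an adjusted p of 0.05, and so did 0 of all 12792 genes tested (0.0%). With the number added as a block, the counts were again 0 of 30 and 0 of 12792 (0.0%). An unadjusted p under 0.05 was reached by 23 of all genes (0.18%) without the block and by 280 (2.19%) with it, and by 0 of the 30 in both fits. The AAV-shbrpf1 minus AAV-scramble differences of the 30 genes ran between -0.17 for Insig2 and 0.21 for Tm7sf2, with a median of -0.04, beside a median of -0.02 over all genes. Of the 30, 22 lay below 0, beside 59.5% of all genes.

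**Figure D1:**
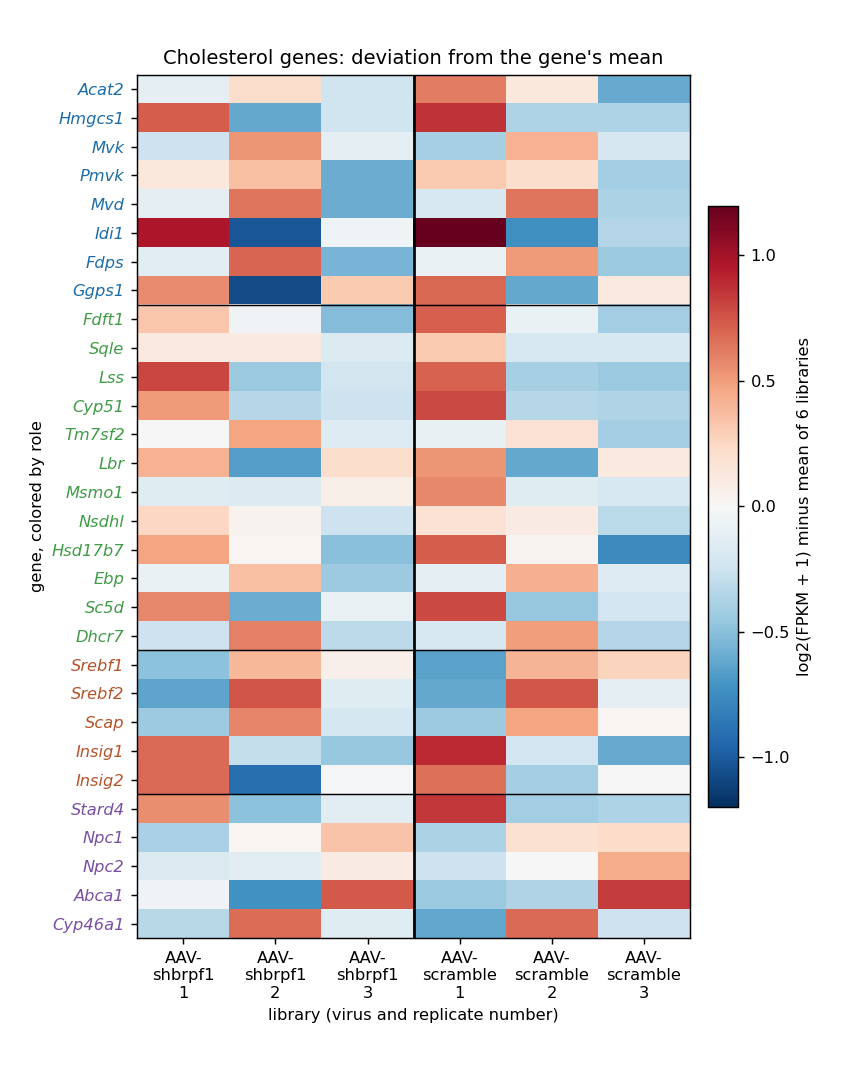
Deviation of log2(FPKM + 1) from each gene's mean over 6 libraries, with AAV-shbrpf1 libraries 1 to 3 left of AAV-scramble libraries 1 to 3 and genes grouped by role. Columns of the same number match across the viruses, as in Idi1, which ran from 6.26 to 32.8 FPKM and was highest in both libraries numbered 1.

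The levels of the cholesterol genes differed between replicate numbers instead. In limma's F test over the 3 numbers, with the virus in the model, 27 of the 30 genes passed, beside 8876 of 12792 genes tested (69.4%). Acat2, Sqle and Msmo1 were the 3 that did not. In 26 of the 27, both libraries of the highest number stood above all 4 other libraries, as in 82.9% of the 8876 genes that passed (57.5% of all genes tested). The ratio between the highest and the lowest number mean ran from 1.32 in Sqle to 4.29 in Idi1, with a median of 2.12. Values are given below in the order of libraries 1, 2 and 3 within each virus, and differences between numbers are on the log2(FPKM + 1) scale with their SE. Over all genes tested, the median was -0.25 for number 2 minus number 1 and -0.01 for number 3 minus number 1. It was 0.25 for number 3 minus number 2. Number 3 minus number 1 was thus the contrast least moved by a general shift over all genes tested. Among genes averaging 5 FPKM or more in either group, the medians were -0.04, 0.05 and 0.15 in the same order. In those genes number 3 minus number 1 was not the least moved.

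In the mevalonate pathway, 7 of 8 genes differed between numbers, beside 69.4% of all genes tested. Acat2 encodes the cytosolic thiolase that joins 2 acetyl-CoA units, and its level was 39.3, 49.6 and 36.0 FPKM with AAV-shbrpf1 and 65.9, 46.8 and 27.8 FPKM with AAV-scramble. It was among the 4 most abundant of the 30 genes, yet the libraries of each number disagreed, above all in number 1, and it did not pass (adjusted p = 0.105, limma). Hmgcs1, HMG-CoA synthase, was the most abundant, at 193, 75.9 and 98.2 FPKM with AAV-shbrpf1 and 213, 89.8 and 89.9 FPKM with AAV-scramble. Both libraries numbered 1 stood well above the other 4, with -1.29 ± 0.12 for number 2 minus number 1 and -1.10 ± 0.12 for number 3 minus number 1 (adjusted p = 0.00244, limma). Idi1, the isomerase that makes the reactive isoprenoid unit, showed the widest range of the 30. Its level was 27.8, 6.26 and 13.2 FPKM with AAV-shbrpf1 and 32.8, 7.86 and 10.5 FPKM with AAV-scramble. The mean of number 2 was 0.233 times that of number 1, a difference of -1.96 ± 0.17, and number 3 lay between them.

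Mvk, Pmvk and Mvd carry mevalonate to isopentenyl diphosphate. Mevalonate kinase, Mvk, was at 12.9, 22.8 and 14.4 FPKM with AAV-shbrpf1 and 11.5, 21.1 and 13.4 FPKM with AAV-scramble. Pmvk, the second kinase, was at 35.2, 41.6 and 20.96 FPKM with AAV-shbrpf1 and 40.3, 37.4 and 24.0 FPKM with AAV-scramble. Mvd, the decarboxylase that ends this stretch, was at 20.8, 35.9 and 14.7 FPKM with AAV-shbrpf1 and 19.7, 35.8 and 17.1 FPKM with AAV-scramble. Mvk and Mvd were highest in both libraries numbered 2, by 0.79 ± 0.09 and 0.79 ± 0.11 over number 1. Mvk was lowest in number 1 and Mvd in number 3. Pmvk was lowest in number 3 and nearly level between numbers 2 and 1, whose libraries overlapped, with -0.79 ± 0.12 for number 3 minus number 2.

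Fdps and Ggps1 extend the isoprenoid chain, Fdps to farnesyl diphosphate and Ggps1 to the geranylgeranyl diphosphate used for protein prenylation. Fdps was at 30.5, 55.0 and 22.6 FPKM with AAV-shbrpf1 and 31.7, 48.1 and 24.4 FPKM with AAV-scramble. Ggps1 was at 11.0, 2.86 and 9.08 FPKM with AAV-shbrpf1 and 12.1, 4.31 and 7.81 FPKM with AAV-scramble. They were opposite in order: number 2 minus number 1 was 0.71 ± 0.11 in Fdps and -1.47 ± 0.17 in Ggps1.

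Of the 12 squalene and sterol enzymes, 10 differed between numbers, beside the same 69.4%. Fdft1, squalene synthase, commits the pathway to sterols and was at 39.7, 30.5 and 21.5 FPKM with AAV-shbrpf1 and 51.9, 29.6 and 23.2 FPKM with AAV-scramble. Sqle, squalene epoxidase, was at 33.0, 33.2 and 27.1 FPKM with AAV-shbrpf1 and 38.0, 26.6 and 26.6 FPKM with AAV-scramble. Fdft1 was highest in number 1 and lowest in number 3, with -0.99 ± 0.13 for number 3 minus number 1. Sqle had the narrowest range of the 30 and did not pass (adjusted p = 0.109, limma). Lss closes the sterol ring system, and its level was 12.6, 4.71 and 5.71 FPKM with AAV-shbrpf1 and 11.7, 4.93 and 4.73 FPKM with AAV-scramble. Its libraries numbered 1 stood at more than any other by a wide margin, with -1.17 ± 0.12 for number 2 minus number 1 and -1.08 ± 0.12 for number 3 minus number 1. Cyp51 removes a methyl group from lanosterol and was at 60.5, 33.2 and 35.5 FPKM with AAV-shbrpf1 and 73.8, 33.2 and 32.9 FPKM with AAV-scramble. It shared the order of Hmgcs1 and Lss, highest in number 1 and close together in numbers 2 and 3, with -0.99 ± 0.12 for number 2 minus number 1.

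Tm7sf2 and Lbr encode sterol reductases for the same step, and the Lbr protein also anchors lamins at the nuclear membrane. Tm7sf2 was at 5.30, 7.75 and 4.66 FPKM with AAV-shbrpf1 and 4.93, 6.11 and 3.75 FPKM with AAV-scramble. Lbr, the least abundant of the 30, was at 3.75, 1.25 and 3.11 FPKM with AAV-shbrpf1 and 4.10, 1.32 and 2.86 FPKM with AAV-scramble. Tm7sf2 was highest in number 2 and Lbr lowest there, with 0.37 ± 0.12 and -1.11 ± 0.13 for number 2 minus number 1. The call of Tm7sf2 was lost without either library numbered 1 and without AAV-shbrpf1 library 2. The lowest Lbr value rests on about 57 implied fragments, for a counting error of 13.2%, against 12874 fragments and 0.881% for Hmgcs1 in AAV-shbrpf1 library 1.

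Msmo1, Nsdhl and Hsd17b7 act in turn to strip the remaining methyl groups. Msmo1 was at 12.6, 12.5 and 14.9 FPKM with AAV-shbrpf1 and 21.6, 12.6 and 12.2 FPKM with AAV-scramble. Nsdhl was at 26.4, 22.8 and 18.4 FPKM with AAV-shbrpf1 and 25.0, 23.6 and 17.5 FPKM with AAV-scramble. Hsd17b7 was at 15.6, 11.1 and 7.44 FPKM with AAV-shbrpf1 and 18.7, 11.2 and 6.05 FPKM with AAV-scramble. Msmo1 stood at a like level in 5 libraries and higher in AAV-scramble library 1, and did not pass (adjusted p = 0.368, limma). Nsdhl and Hsd17b7 were lowest in number 3, with -0.50 ± 0.10 and -1.23 ± 0.15 for number 3 minus number 1. The call of Nsdhl was lost when either library numbered 1 or AAV-scramble library 3 was left out.

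Near the end of the pathway Ebp shifts a double bond, Sc5d introduces one and Dhcr7 reduces one, and loss of Dhcr7 causes Smith-Lemli-Opitz syndrome in humans. Ebp was at 4.75, 6.76 and 3.50 FPKM with AAV-shbrpf1 and 4.61, 7.12 and 4.44 FPKM with AAV-scramble. Sc5d was at 30.1, 12.9 and 18.9 FPKM with AAV-shbrpf1 and 35.2, 14.3 and 16.8 FPKM with AAV-scramble. Dhcr7 was at 14.0, 26.1 and 13.4 FPKM with AAV-shbrpf1 and 14.6, 24.2 and 13.0 FPKM with AAV-scramble. Ebp and Dhcr7 were highest in number 2, by 0.48 ± 0.13 and 0.77 ± 0.10 over number 1. The call of Ebp was lost without AAV-scramble library 1. Sc5d was highest in number 1, with -1.20 ± 0.12 for number 2 minus number 1.

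All 5 regulators of the sterol response differed between numbers, beside 69.4% of all genes tested, with Srebf1, Srebf2 and Scap highest in number 2 and Insig1 and Insig2 highest in number 1. Srebf1 encodes SREBP1, which acts mainly on fatty acid genes, and was at 9.56, 18.5 and 14.5 FPKM with AAV-shbrpf1 and 8.52, 18.6 and 16.8 FPKM with AAV-scramble. Srebf2 encodes SREBP2, the main activator of cholesterol synthesis, and was at 30.1, 80.0 and 42.3 FPKM with AAV-shbrpf1 and 30.5, 79.2 and 43.5 FPKM with AAV-scramble. Scap, the escort protein, was at 11.0, 23.3 and 13.0 FPKM with AAV-shbrpf1 and 11.0, 21.5 and 15.5 FPKM with AAV-scramble. All 3 were lowest in both libraries numbered 1 and highest in both numbered 2, by 0.96 ± 0.12, 1.37 ± 0.09 and 0.96 ± 0.12. Insig1, an inhibitor that is also a target of SREBP2, was at 54.3, 27.2 and 24.3 FPKM with AAV-shbrpf1 and 62.8, 28.4 and 21.7 FPKM with AAV-scramble. Insig2, its paralog, was at 8.95, 2.32 and 5.15 FPKM with AAV-shbrpf1 and 8.80, 3.69 and 5.24 FPKM with AAV-scramble. Both were highest in number 1. Number 2 minus number 1 was -1.04 ± 0.12 in Insig1 and -1.32 ± 0.16 in Insig2, and number 3 minus number 1 was -1.31 ± 0.12 and -0.67 ± 0.16. Srebf2 and Hmgcs1 thus ran in opposite order between numbers 2 and 1, with mean levels of 79.6 and 30.3 FPKM for Srebf2 and 82.9 and 203 FPKM for Hmgcs1. These are RNA levels: cleavage of SREBP2 was not measured.

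Among the 5 genes of transport, export and turnover, all differed between numbers, beside 69.4% of all genes tested, and 3 were highest in number 3. Stard4, a soluble carrier of cholesterol and a target of SREBP2, was at 12.8, 5.66 and 7.60 FPKM with AAV-shbrpf1 and 15.8, 6.04 and 6.23 FPKM with AAV-scramble. It shared the order of Hmgcs1, with -1.15 ± 0.15 for number 2 minus number 1. Npc1 and Npc2 together release cholesterol from lysosomes. Npc1 was at 4.88, 6.85 and 8.80 FPKM with AAV-shbrpf1 and 4.93, 7.75 and 7.96 FPKM with AAV-scramble. Npc2 was at 14.9, 15.5 and 18.2 FPKM with AAV-shbrpf1 and 14.1, 17.0 and 23.5 FPKM with AAV-scramble. Number 3 minus number 1 was 0.67 ± 0.12 in Npc1 and 0.48 ± 0.13 in Npc2. Npc1 was highest in number 2 instead under median-of-ratios scaling and quantile normalization. The calls of Npc1 and Npc2 were lost without either library numbered 1, and that of Npc2 also without AAV-scramble library 3. Npc2 did not pass under quantile normalization or with no filter on low values either. Abca1, the pump that loads cholesterol onto apolipoproteins, was at 7.55, 4.30 and 13.6 FPKM with AAV-shbrpf1 and 5.44, 5.84 and 14.7 FPKM with AAV-scramble. Both libraries numbered 3 stood at roughly the same level above the other 4, with 1.03 ± 0.20 for number 3 minus number 1 and 1.33 ± 0.20 for number 3 minus number 2. Cyp46a1, which in the brain is known mainly from neurons, was at 15.3, 31.6 and 17.6 FPKM with AAV-shbrpf1 and 12.3, 31.9 and 16.3 FPKM with AAV-scramble. It was highest in both libraries numbered 2, by 1.15 ± 0.11 over number 1.

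**Figure D2:**
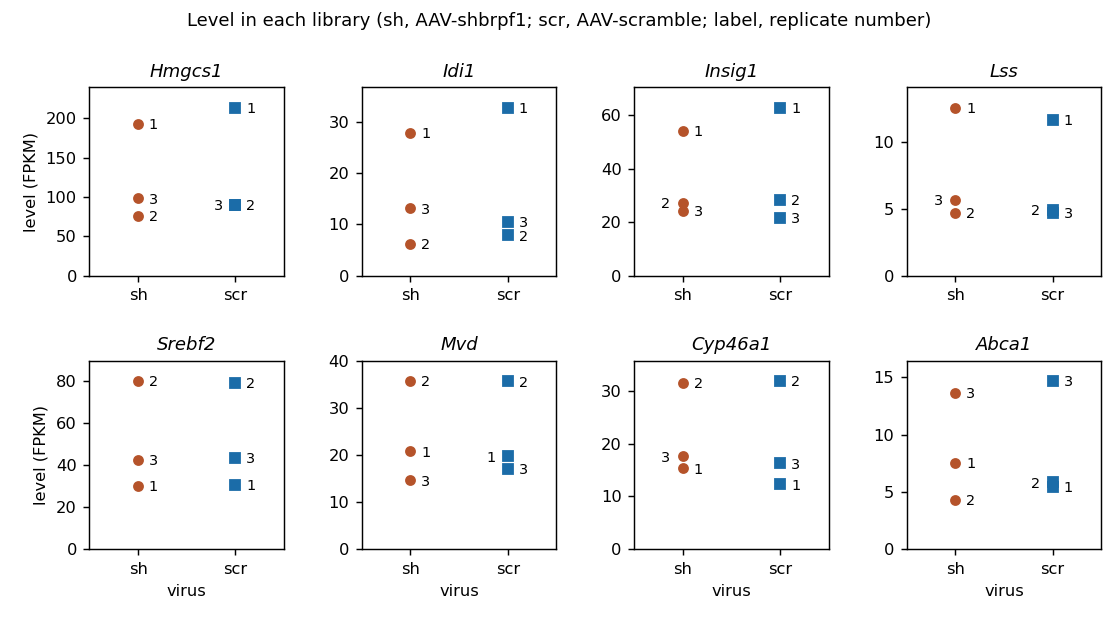
FPKM of 8 cholesterol genes in each library, with AAV-shbrpf1 (sh) left of AAV-scramble (scr) and each point marked by its replicate number. Number 1 is highest for Hmgcs1, Idi1, Insig1 and Lss, number 2 for Srebf2, Mvd and Cyp46a1, and number 3 for Abca1, where both libraries stand above the other 4.

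Of the 27 cholesterol genes that passed, 13 were highest in number 1, 11 in number 2 and 3 in number 3, beside 49.3%, 27.0% and 23.7% of the 8876 genes that passed (34.2%, 18.7% and 16.5% of all genes tested). The 20 synthesis enzymes leaned away from number 3. Of them 16 passed and were lower in number 3 than in number 1, beside 38.1% of all genes tested, and Mvk was the enzyme that passed with the opposite sign. Lowest of all in number 3 were 9, beside 6.64% of all genes tested: Pmvk, Mvd, Fdps, Fdft1, Tm7sf2, Nsdhl, Hsd17b7, Ebp and Dhcr7. No enzyme passed with its highest level in number 3. The median difference of the 20 enzymes was -0.45 for number 3 minus number 1, beside -0.01 over all genes. Their summed level was 629, 493 and 403 FPKM in AAV-shbrpf1 libraries 1, 2 and 3 and 732, 486 and 379 FPKM in AAV-scramble libraries 1, 2 and 3, highest in the library numbered 1 and lowest in that numbered 3 with either virus. With any single library left out, 14 to 18 enzymes passed and were lower in number 3 than in number 1. Median-of-ratios scaling left this count at 16 but moved the split between numbers 3 and 2, where 7 of the 30 genes were called higher in number 3 and 20 lower, in place of 12 and 15; over all genes it was 4394 higher and 4209 lower, in place of 6126 and 2748. For number 2 minus number 1 the split over all genes was 4325 higher and 4280 lower under that scaling, in place of 3180 and 5696, and among the 30 it was 14 and 13, in place of 13 and 14. Over all genes tested, the number called was 5331 without AAV-shbrpf1 library 1 and 4793 without AAV-scramble library 1.

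Other measures moved with the numbers. The radial glia and progenitor markers summed to a mean of 913 FPKM in number 1, 299 FPKM in number 2 and 802 FPKM in number 3. Fabp7 alone made up 744, 178 and 575 FPKM of these sums, and the other 5 markers summed to 169, 121 and 227 FPKM, highest in number 3. Astrocyte markers, all 7 expressed, summed to 211, 198 and 325 FPKM, and oligodendrocyte lineage markers, all 7 expressed, to 129, 216 and 275 FPKM. The GABAergic sums were 599, 522 and 544 FPKM, and those of 6 pan-neuronal markers 848, 954 and 933 FPKM, of which Tubb3 made up 362, 656 and 568 FPKM and the other 5 genes 486, 298 and 365 FPKM. The 4 endothelial and mural markers summed to 12.9, 1.22 and 1.78 FPKM, nearly all of number 1 being Acta2, which stood at 11.6 FPKM in AAV-shbrpf1 library 1 and 11.5 FPKM in AAV-scramble library 1 and reached no more than 0.407 FPKM elsewhere. Ribosomal RNA loci took 12.3% and 7.95% of implied fragments in number 2, and between 2.24% and 3.94% in the remaining libraries, and mitochondrially encoded genes took 9.08% and 8.39% in number 1, 1.98% and 2.68% in number 2 and 5.55% and 6.01% in number 3. Their part in the differences of the cholesterol genes was not tested. In RNA from whole cultures, fewer cells of a type and less RNA per cell cannot be told apart.

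Base composition of the transcripts moved with the numbers as well. The transcripts of the 30 genes hold between 40.1% GC in Ggps1 and 59.6% GC in Mvk. Across the 30 genes, number 2 minus number 1 followed GC content with Pearson's r = 0.86, and across all genes with r = 0.75. The value was 0.51 for number 3 minus number 1 and -0.71 for number 3 minus number 2 across the 30, beside 0.46 and -0.64 across all genes. These are descriptions across genes measured in the same 6 libraries, and genes are not independent replicates. Ggps1 and Idi1, with the lowest GC content of the 30, had the most negative values of number 2 minus number 1.

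**Figure D3:**
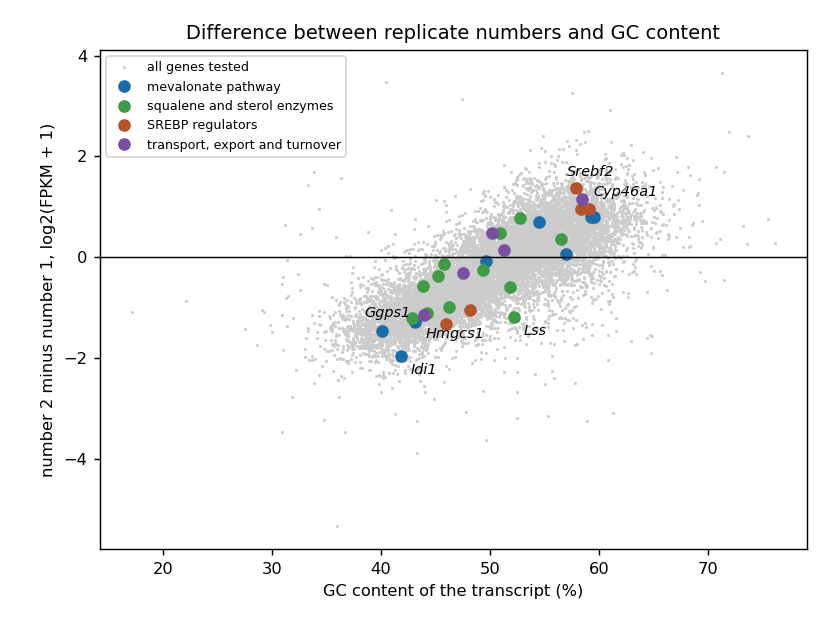
Number 2 minus number 1 on the log2(FPKM + 1) scale against GC content of the transcript for all genes tested (grey) and the 30 cholesterol genes (coloured by role). The cholesterol genes lie along the slope of all genes, with Idi1 at -1.96 and Srebf2 at 1.37, while Lss lies below the genes of its GC content.

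A correction of each library for GC content and length, added after the data were seen, left 22 of the 30 genes past the threshold, beside 5549 of 12785 genes (43.4%). The calls of Mvk, Tm7sf2, Lbr, Scap and Npc2 were lost, with adjusted p between 0.0583 for Tm7sf2 and 0.319 for Lbr (limma). For number 2 minus number 1, Idi1 came to -0.75 ± 0.11, Srebf2 to 0.74 ± 0.07, Cyp46a1 to 0.66 ± 0.10 and Hmgcs1 to -0.21 ± 0.07, each nearer to 0 than before, while Lss came to -1.32 ± 0.10. In this contrast 8 of the 30 genes turned to the opposite sign. Of these Pmvk came to -0.36 ± 0.09, Nsdhl to 0.70 ± 0.07, Hsd17b7 to 0.36 ± 0.12 and Abca1 to 0.14 ± 0.20, and the others were Acat2, Sqle, Tm7sf2 and Msmo1, which did not pass after the correction. For number 3 minus number 1, Mvk, Ggps1, Lbr and Msmo1 turned. For number 3 minus number 2, 8 turned, namely Hmgcs1, Idi1, Cyp51, Msmo1, Sc5d, Srebf1, Stard4 and Npc1, so that Srebf1 became highest in number 3 and Npc1 in number 2. For number 3 minus number 1, 13 of the 20 enzymes passed and were lower, beside 21.3% of all genes, with a median of -0.49 over the 20. After the correction 12 enzymes were lowest in number 3, beside 11.5% of all genes, and Ggps1 was the enzyme that passed with its highest level there. Insig1 came to -1.21 ± 0.10 for number 3 minus number 1, and Abca1 to 0.91 ± 0.20.

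**Figure D4:**
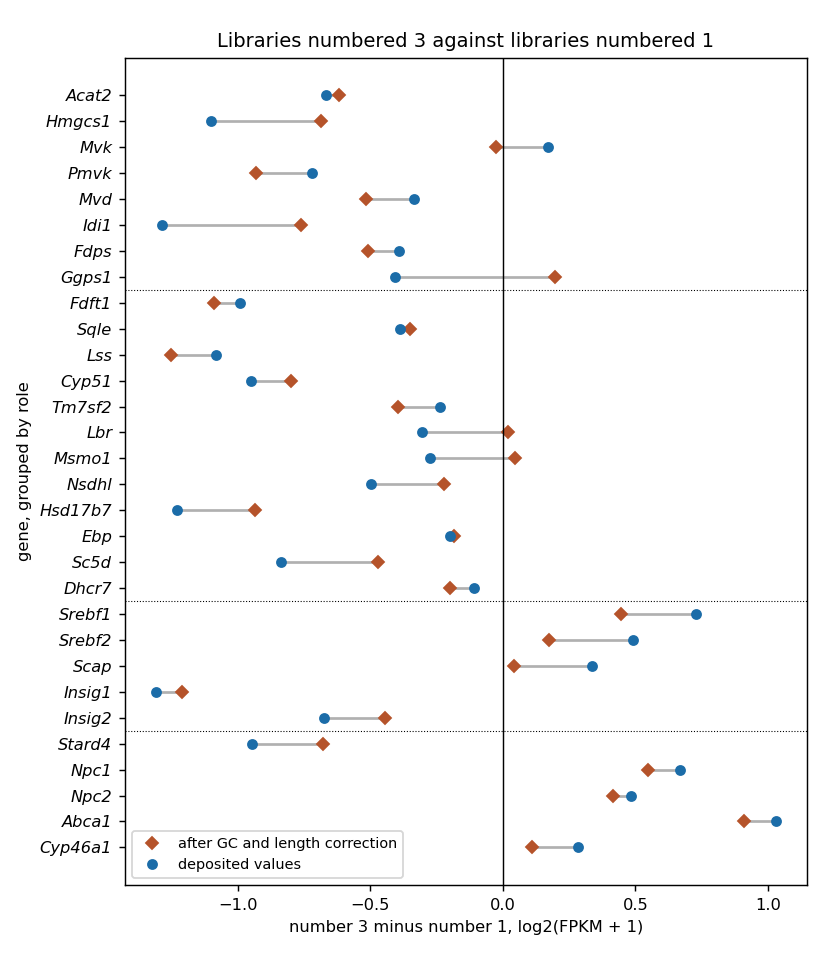
Number 3 minus number 1 on the log2(FPKM + 1) scale for the 30 cholesterol genes, before (circles) and after (diamonds) correction for GC content and length. Before correction 19 of 20 synthesis enzymes lie below 0 and after it 17 do, while Srebf1, Srebf2, Npc1, Npc2 and Abca1 lie above 0 in both.

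The promoters of 25 of the 30 genes could be matched by symbol in RefSeq sequence of GRCm38.p6 and were searched on both strands for known motifs in the 250 bases before the start. The letters TCACNCCAC, a form of the sterol regulatory element that SREBP proteins bind, were found in Hmgcs1 alone, and in 1.05% of 32851 promoter windows. No other form of the element was searched, so a missing match does not show that a gene lacks it. The CCAAT box, bound by NF-Y, was found in 22 of the 25, beside 37.5% of 27025 genes with a window. GGGCGG, bound by Sp1, was found in 23 of the 25, beside 35.4% of those genes. The 27025 genes were not limited to genes expressed here, whereas all 25 were expressed. These shares therefore do not set the cholesterol genes apart from other expressed genes. A match describes letters in a window and does not show binding. The stretch of Hmgcs1 is shown because it holds the sterol element, in capitals, 137 bases before the start and 39 bases from a CCAAT box; it lies at chr13:119690169-119690267 on the plus strand.
Hmgcs1: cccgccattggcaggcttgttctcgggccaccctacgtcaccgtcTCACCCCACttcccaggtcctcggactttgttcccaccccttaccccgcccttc
The stretches of Srebf2 (chr15:82147094-82147178), Insig1 (chr5:28071162-28071240) and Lss (chr10:76531503-76531587), all on the plus strand, hold a CCAAT box on the opposite strand, read here as ATTGG in capitals. They were chosen after their values were seen, as the genes with the smallest p between numbers whose stretch around the box lay outside the annotated gene. Idi1, with a smaller p than Insig1 and Lss, was passed over by this rule. The shared box was a condition of the choice and cannot bear on the opposite orders of these genes.
Srebf2: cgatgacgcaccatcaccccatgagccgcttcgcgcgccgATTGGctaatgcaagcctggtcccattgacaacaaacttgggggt
Insig1: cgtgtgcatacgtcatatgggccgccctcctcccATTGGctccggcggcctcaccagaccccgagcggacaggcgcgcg
Lss: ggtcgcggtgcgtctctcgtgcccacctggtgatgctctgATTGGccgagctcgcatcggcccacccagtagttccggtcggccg

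Within the contrast between the viruses, the 3 genes of smallest p on each side had small differences. Lower with AAV-shbrpf1 were Msmo1 at -0.16 ± 0.28 (SE), Npc2 at -0.14 ± 0.26 and Fdft1 at -0.15 ± 0.37, and higher were Tm7sf2 at 0.21 ± 0.27, Mvk at 0.12 ± 0.32 and Cyp46a1 at 0.13 ± 0.42. The adjusted p was 1 for each of the 30 genes in both fits (limma). The direction of Msmo1, Npc2, Fdft1, Mvk and Cyp46a1 turned when 1 library was left out of the fit without the block. Leaving out 1 library makes the numbers unequal between the viruses, so differences between numbers enter that contrast. With the block and a whole replicate number left out, only Msmo1 of these turned, to 0.12 without replicate 1. Mvk and Tm7sf2 were higher in all 3 pairs of the same number, beside 7.15% of all genes tested, and no gene of the 30 was lower in all 3 pairs, beside 11.3%. In Tm7sf2 the excess in pairs 1, 2 and 3 was 7.44%, 27.0% and 24.0%, with a difference under the block of 0.21 ± 0.10 and an unadjusted p of 0.076 (limma). Without the block, the difference of Tm7sf2 was between 0.03 and 0.35 with 1 library left out, at 0.03 without AAV-shbrpf1 library 2 and 0.06 without AAV-scramble library 3. With the block it was 0.28, 0.17 and 0.19 without replicates 1, 2 and 3. None of the 30 had groups that did not overlap, beside 1.07% of all genes. The largest differences within a pair were in number 1, where Msmo1 was 41.4% lower and Acat2 40.4% lower in the AAV-shbrpf1 library. In pair 3 the same genes were 21.8% and 29.5% higher.

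**Figure D5:**
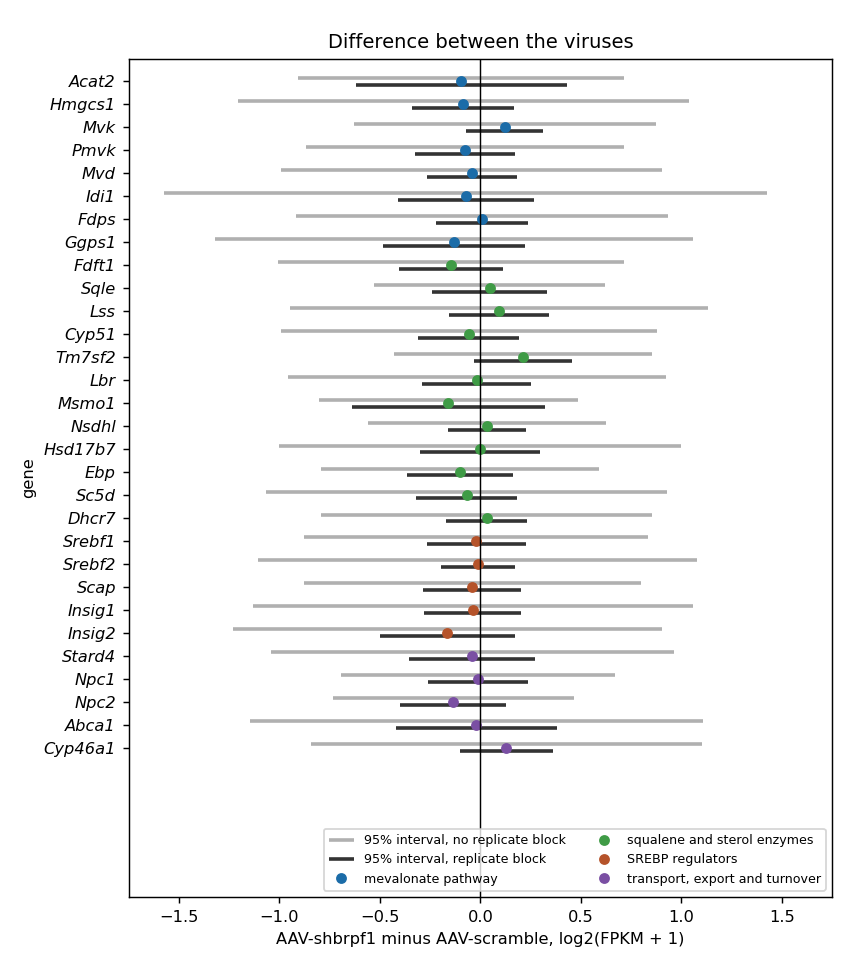
AAV-shbrpf1 minus AAV-scramble on the log2(FPKM + 1) scale for the 30 cholesterol genes, with 95% intervals without (grey) and with (black) the replicate number as a block. Every interval spans 0, and the black intervals reach no further than -0.64 and 0.46.

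The block narrowed the SE of the 30 genes to between 0.07 and 0.21, against 0.25 to 0.64 without it. With it, no 95% interval of a cholesterol gene reached below -0.64 or above 0.46. A change of 1 on this scale thus lies outside all 30 intervals of that fit. Without the block the intervals reached -1.57 and 1.43, both for Idi1, so that a change of 1 lies inside some of them. A p that misses the threshold does not show that the viruses act alike, and differences inside these intervals could not be told from 0. The medians of the 30 genes were -0.05, -0.02 and 0.09 in pairs 1, 2 and 3, beside -0.02, -0.05 and 0.01 over all genes.

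Neighbouring pathways were read from lists of 56 other genes, of which 50 were measured. None passed between the viruses, beside the 0.0% of all genes tested. Of the SREBP processing and sterol sensing genes, 8 of 9 measured differed between numbers, and none of the 8 was lowest in number 3, beside 69.4% and 6.64% of all genes tested, which for so few genes sets neither count apart. Erlin2, a membrane protein of the endoplasmic reticulum that binds sterols, was at 19.9, 11.3 and 17.7 FPKM with AAV-shbrpf1 and 20.9, 12.8 and 17.5 FPKM with AAV-scramble. It was highest in both libraries numbered 1 and lowest in both numbered 2. Of the fatty acid synthesis genes all 11 measured differed between numbers, and 2 of them, Acly and Acss2, were lowest in number 3, beside the same shares. Acly was nearly level there, with -0.02 for number 3 minus number 2, and stood at 48.9 and 50.5 FPKM in AAV-shbrpf1 libraries 2 and 3. Fads2, a desaturase of polyunsaturated chains, was at 109, 210 and 178 FPKM with AAV-shbrpf1 and 97.3, 211 and 206 FPKM with AAV-scramble. Scd2, the main stearoyl-CoA desaturase of the brain, was at 116, 160 and 177 FPKM with AAV-shbrpf1 and 114, 164 and 181 FPKM with AAV-scramble. Both were lowest in the libraries numbered 1.

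Of 20 measured genes of sterol uptake, transport, storage and oxidation, 14 differed between numbers and 3 of these were lowest in number 3, beside the same 69.4% and 6.64%, so that the count that differed was at the level of all genes. Lrp1, an endocytic receptor of lipoproteins, was at 30.6, 62.9 and 55.2 FPKM with AAV-shbrpf1 and 30.3, 68.1 and 54.6 FPKM with AAV-scramble. Abca2, an endosomal sterol transporter, was at 16.9, 31.6 and 19.1 FPKM with AAV-shbrpf1 and 17.5, 32.2 and 17.9 FPKM with AAV-scramble. Both were lowest in number 1 and highest in number 2. Of the 10 isoprenoid branch genes, 6 differed between numbers, with none lowest in number 3, again beside 69.4% and 6.64%. Nus1 and Dhdds are the subunits of the enzyme that makes dolichol, the lipid carrier of protein glycosylation. Nus1 was at 23.5, 8.18 and 14.2 FPKM with AAV-shbrpf1 and 27.3, 10.4 and 12.4 FPKM with AAV-scramble. Dhdds was at 10.1, 16.7 and 11.4 FPKM with AAV-shbrpf1 and 9.24, 18.6 and 13.3 FPKM with AAV-scramble. The 2 subunits ran in opposite order, Nus1 highest in number 1 and Dhdds in number 2.

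Some of these levels may share reads with other genes, since how strand and reads with several matches were handled is stated by no source used here. Acat2 is 97.7% identical to Acat3 over 1477 nt, and Acat3 was listed at a mean of 2.79 FPKM. It is also 98.65% identical to Tcp1 over 445 nt, and Tcp1 was listed at 29.6 FPKM. Idi1 is identical to Gm13502 over 684 nt, and Gm13502 was listed at a mean of 13.7 FPKM. Fdps is 98.9% identical to Gm3571 over 1062 nt, and Gm3571 was listed at 6.45 FPKM. Fdft1 overlaps Ctsb, on the opposite strand and at 55.4 FPKM, over 774 nt of exon, and Tm7sf2 overlaps Vps51, on the same strand and at 11.3 FPKM, over 532 nt. Smaller overlaps with expressed genes touch Cyp51, Ggps1, Srebf1 and Npc1. In GRCm38 coordinates, Hmgcs1 lies on chromosome 13 from 119690379 to 119708260, Idi1 on chromosome 13 from 8885501 to 8892451, Srebf2 on chromosome 15 from 82147181 to 82205379, Insig1 on chromosome 5 from 28071363 to 28078662, Lss on chromosome 10 from 76531588 to 76557138 and Cyp46a1 on chromosome 12 from 108334381 to 108362234, all on the plus strand.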

How the data were processed

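Gene expression of 6 libraries (3 AAV-shbrpf1, 3 AAV-scramble) was read from a table that the authors deposited with a value per gene and library. The header names no unit, and the deposited values were read as FPKM from their low-end steps. FastQC, StringTie and DESeq2 and the build mm9 are named in the submitters' processing notes, without versions or roles. No aligner is stated in any source used here. GENCODE M21 (GRCm38) holds 55154 of the identifiers, 54899 of them with the table's start and end, so coordinates are those of GRCm38. Every column of library values belonged to these samples.

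Depth was taken as the inverse of the commonest low product of FPKM and kilobases in 11673 genes with a single exon. Only 41.4% to 46.7% of low values lay on whole steps (tolerance 0.03), so the reads behind the values could not be recovered whole and a count test was not run. Shares of implied fragments used the longest coding transcript.

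The 12792 genes averaging 1 FPKM or more in either group were tested as log2(FPKM + 1) in R 4.3.3 by limma 3.58.1 (two-sided, with trend, Benjamini-Hochberg adjustment over all genes tested, threshold 0.05). This scale understates changes of low genes. The virus contrast had no covariate, and the F test over replicate numbers had the virus as a term. The submitters state no model with pairs, but same-numbered libraries deviated together (0.87, 0.83 and 0.57). The number was therefore fitted as a block as an alternative, although the labels do not say that it pairs the samples. On simulated data with a log2 change of 2 between the viruses, over 12792 genes, 42.5% of changed genes were recovered without the block and 97.5% with it. The virus differences of the cholesterol genes ran only between -0.17 and 0.21. The recovered shares therefore do not say how often differences of that size would be found. Simulated data also cannot show whether the number pairs these samples.

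The 30 genes, the other lists and the tests were chosen with earlier results of these data known. Named genes follow a rule: members past any threshold, the 3 of smallest p in each direction between the viruses, the 6 of smallest F test p, the 4 most abundant, and the 2 most abundant of each other list. One gene that this rule names is not reported here. Transcript identity was searched with BLAST 2.17.0. GC correction took lowess residuals (span 0.3) of each library on GC percent and log2 length.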

Additional observations from a re-analysis of the deposited data

How the results depend on the processing

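With the replicate number as a block, 0 of the 30 cholesterol genes and 0 of 12792 genes passed between the viruses. The block thus changed no call. It gave 8 genes over the whole table without replicate 2 and 1 without replicate 3, none of them among the 30 or the other pathway genes. Every other scaling, filter, pseudocount or left-out library listed for this contrast gave 0 genes. The sign with a library left out was read only for the 3 genes of smallest p on each side, not for the rest of the 30. Without the block, the virus differences of 5 of them, none past a threshold, turned sign. With each library left out in turn they were -0.295 to 0.0896 for Msmo1, -0.293 to 0.0547 for Npc2, -0.39 to 0.17 for Fdft1, -0.11 to 0.36 for Mvk and -0.17 to 0.50 for Cyp46a1. Under the block with a whole replicate number left out, only Msmo1 of these turned, to 0.12 without replicate 1.

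Between replicate numbers, 8876 genes passed, against 5549 after GC and length correction (chosen after the data were seen), 5493 with a mean of at least 5 FPKM, and 4793 to 8885 with a library left out. Of the other pathway genes 39 passed, against 22 after GC correction and 19 to 36 with a library left out. The number of cholesterol genes past the threshold was 27, with 26 or 27 under each other scaling, filter and pseudocount, 22 after GC correction and 23 to 29 with a library left out. Enzymes highest in number 3 numbered 1 after GC correction, against 0. The cause of these changes was not tested. With 1 library of a number left out, the other is assumed to vary like the rest. With 2 libraries per number, and depth inferred from steps, small differences between numbers could not be resolved.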
